A study of Mus musculus with 32 samples.

Results

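The Sox developmental factors examined here were 10 genes, Sox1, Sox7, Sox8, Sox9, Sox10, Sox11, Sox14, Sox17, Sox18 and Sox21, out of 21883 protein-coding genes in the RefSeq annotation of GRCm38.p6. They are a list of named genes drawn up with earlier results of these data known, and each was followed over a window made of its annotated span plus 20 kb on each side. The marks were profiled by CUT&Tag, in which an antibody directs a transposase to cut and tag the DNA around a chromatin mark, in oocytes isolated from mouse ovaries. The 32 samples fell into 16 groups of 2, and each group was represented by 1 deposited peak list, so every value below is a single value without replicate error and no difference was tested. H3K27me3 was listed for 10 groups and H2AK119ub for 6. The PRC1cKO groups, labelled Ring1-/-; Ring1F/-; Ddx4-Cre, were sampled at postnatal day 6 (P6) as non-growing and on day 7 (P7) as growing oocytes, and their PRC1ctrl groups of the same stages were labelled Ring1-/-; Rnf2F/+; Ddx4-Cre. Both PRC1 genotypes thus lacked Ring1, and the knockout label names Ring1 for the floxed allele where the control label names Rnf2, so the deleted gene could not be settled from the label. The PRC2cKO group, labelled EedF/-; Ddx4-Cre, and its PRC2ctrl group, labelled EedF/+; Ddx4-Cre, were P6 non-growing oocytes. Ddx4-Cre is a recombinase expressed in germ cells, and the controls carried it too. Wild-type (WT) oocytes came from embryos of E18.5 and from pups of P1, P6 (non-growing) and P7 (growing).

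Sox proteins are transcription factors that bind DNA through a high-mobility-group box related to that of Sry, the testis-determining gene, and they direct the choice of cell fate in many embryonic tissues. The members cover 4 branches of the family. Sox1, Sox14, Sox21 (group B) and Sox11 (group C) act in neural progenitors and neurons, Sox8, Sox9 and Sox10 (group E) in testis, cartilage and neural crest, and Sox7, Sox17 and Sox18 (group F) in endoderm and endothelium. Polycomb complexes keep such developmental genes silent in cells that do not use them. PRC1 attaches ubiquitin to histone H2A (H2AK119ub) through RING1 or RNF2, and PRC2, with its subunit EED, trimethylates histone H3 (H3K27me3), and each complex can bind the mark made by the other. In mammals both are drawn to promoters rich in CG dinucleotides.

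The RefSeq promoter table of GRCm38.p6, with 250 bases before and 50 after the gene start, held 5 of the 10 members (Sox1, Sox14, Sox21, Sox11 and Sox8). Sox1 is shown because it was the richest of them in CG dinucleotides and lay under both marks in every list, Sox11 because it had the shortest H2AK119ub at P7, and Sox8 because it was the single member whose gene span was free of H3K27me3 in some lists. CG dinucleotides are in capitals. The Sox1 promoter is at chr8:12395269-12395568 on the plus strand, the Sox11 promoter at chr12:27342669-27342968 on the minus strand and the Sox8 promoter at chr17:25570637-25570936 on the minus strand.
Sox1: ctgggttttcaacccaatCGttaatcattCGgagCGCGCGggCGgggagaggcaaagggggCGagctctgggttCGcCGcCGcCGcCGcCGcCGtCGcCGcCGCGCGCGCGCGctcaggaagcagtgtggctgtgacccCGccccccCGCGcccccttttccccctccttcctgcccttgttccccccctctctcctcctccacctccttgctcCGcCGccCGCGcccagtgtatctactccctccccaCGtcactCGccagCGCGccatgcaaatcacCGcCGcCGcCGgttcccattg
Sox11: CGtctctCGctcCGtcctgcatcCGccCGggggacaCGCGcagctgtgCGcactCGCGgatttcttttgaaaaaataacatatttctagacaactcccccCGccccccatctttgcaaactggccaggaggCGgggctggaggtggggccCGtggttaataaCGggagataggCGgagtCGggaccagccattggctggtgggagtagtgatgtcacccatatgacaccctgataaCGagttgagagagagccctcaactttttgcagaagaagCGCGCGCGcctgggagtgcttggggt
Sox8: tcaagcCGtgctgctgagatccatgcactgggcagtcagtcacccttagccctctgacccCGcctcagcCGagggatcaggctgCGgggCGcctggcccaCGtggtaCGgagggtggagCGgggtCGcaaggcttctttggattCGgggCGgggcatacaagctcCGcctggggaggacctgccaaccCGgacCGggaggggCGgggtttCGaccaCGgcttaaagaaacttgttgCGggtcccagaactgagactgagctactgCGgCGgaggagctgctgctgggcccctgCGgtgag

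The Sox1 promoter held 37 CG dinucleotides at a GC content of 70.7%, Sox14 held 26 at 66.0%, Sox21 held 22 at 65.7%, Sox11 held 21 at 58.7% and Sox8 held 21 at 66.3%. Over all 32851 promoters in the table the median was 7 CG dinucleotides and a GC content of 52.7%. All 5 member promoters were therefore above the median, and the Sox1 promoter had more CG dinucleotides than 94.4% of promoters while those of Sox11 and Sox8 had more than 75.2%. The promoters of Sox1, Sox14, Sox21 and Sox11 lay wholly under H3K27me3 in 10 of 10 lists and that of Sox8 in 8 of 10, and all 5 lay wholly under H2AK119ub in 6 of 6. Searched on both strands, the Sox motifs ACAAAG and ACAAT and the TATA motif TATAAA were found in 0 of the 5, against 18.7%, 31.0% and 13.6% of all promoters.

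The members' median window share was above that of all genes for both marks in every list. Across the 10 H3K27me3 lists the members' median share of the window under peaks lay between 68.2% (PRC1ctrl P7) and 84.9% (PRC1cKO P6), against medians between 7.75% (PRC2cKO P6) and 19.2% (WT P7) over all genes. For H2AK119ub the members' median lay between 54.5% (WT P7) and 89.5% (WT E18.5), against 7.99% (WT P7) to 37.1% (WT P6) over all genes. A peak touched the gene span itself in every H3K27me3 list for 9 of 10 members, against 28.9% of all genes, and in every H2AK119ub list for 10 of 10, against 45.3%. The whole span lay under H3K27me3 in all 10 lists at Sox1, Sox14, Sox21, Sox11, Sox10, Sox17 and Sox18, which is 7 members, against 4.24% of all genes. The whole span lay under H2AK119ub in all 6 lists at Sox14 and Sox18, against 3.24% of all genes.

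**Figure D1:**
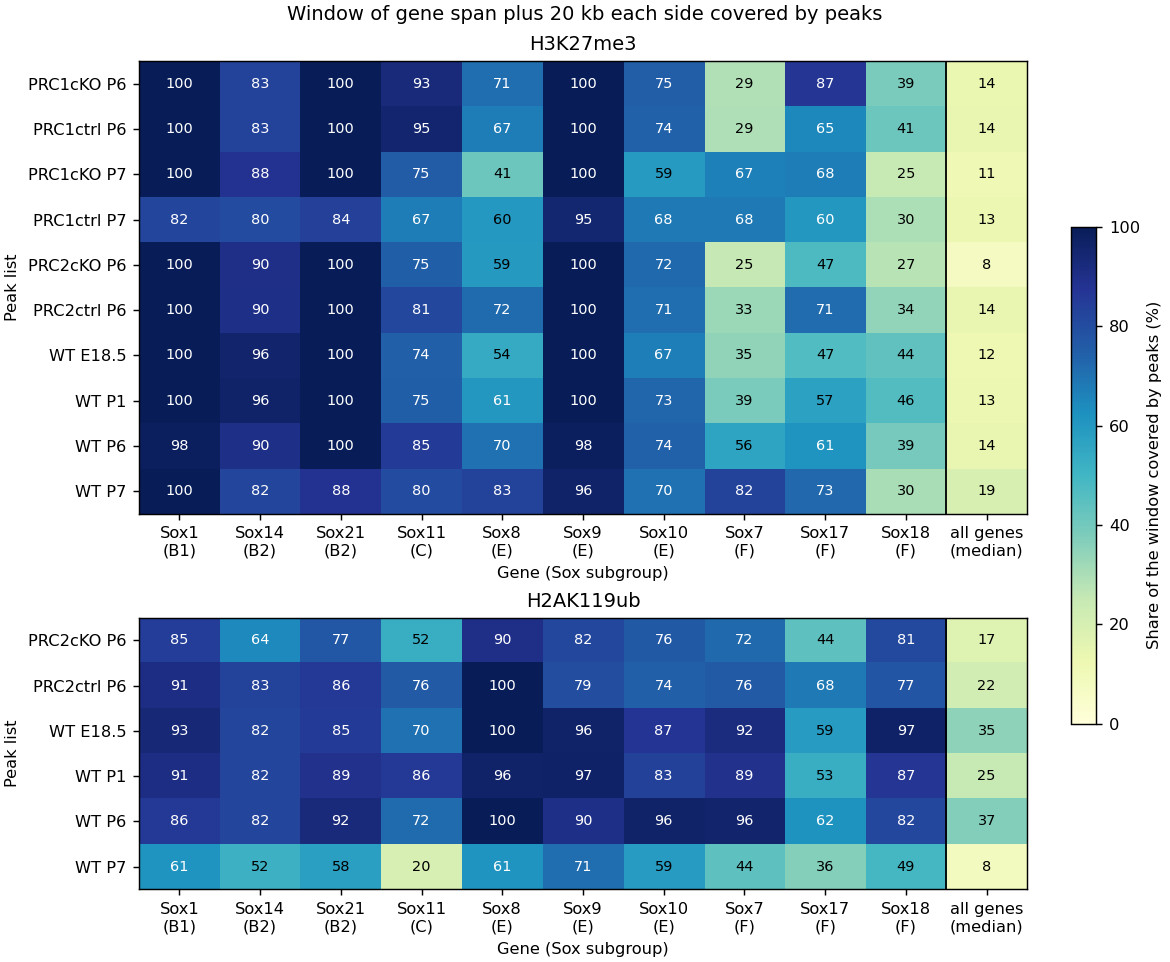
Each cell is the share (%) of a gene's window (span plus 20 kb each side) under peaks, with genes across and the 16 lists down, H3K27me3 above and H2AK119ub below; the last column is the median over 21883 genes. Sox1, Sox21 and Sox9 are near 100% for H3K27me3, Sox7 and Sox18 are lowest, and the WT P7 row has the lowest H2AK119ub share at all 10 members.

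Among the lists, peak numbers ran between 49615 and 83994 and covered lengths between 244.2 and 728.3 Mb, with the shortest covered length in the WT P7 H2AK119ub list. The lowest total signal that entered a list ran between 3754 and 20369, on a scale that may differ between lists, and the part of the lists' scaling or depth in any difference was not tested. As a check of the labelled cell type, the spans of 5 of 5 granulosa and theca genes were touched by H3K27me3 in each of the 10 lists, those of 1 to 3 of 3 endothelial and blood genes, with Pecam1 touched in 3 lists, and those of 0 to 3 of 7 oocyte genes. H2AK119ub touched 5 of 5 granulosa and theca genes, 2 to 3 of 3 endothelial and blood genes and 2 to 7 of 7 oocyte genes in the 6 lists. A histone mark does not measure expression, and these counts do not settle the cell type. The spans of Ring1, Rnf2 and Eed were free of H3K27me3 in 10 of 10 lists, and these peak lists do not show whether a gene was deleted.

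Among the neural members, Sox1, a marker of the early neural plate, was wholly covered by H3K27me3 over its 44.0 kb window in 8 of 10 lists. The exceptions were WT P6, at 98.3%, and PRC1ctrl P7, at 82.1%. The peak over Sox1 reached far beyond the window, with a width of 155 kb in PRC1cKO P6 and 188 kb in PRC1ctrl P6, and of 153 kb in PRC1cKO P7 and 35.0 kb in PRC1ctrl P7. It was 241 kb wide in PRC2cKO and 398 kb in PRC2ctrl, the widest single peak at any member in any list. In the WT lists it measured 146, 147, 46.1 and 63.9 kb at E18.5, P1, P6 and P7.

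Sox21, a factor of group B, was wholly covered in 8 of 10 H3K27me3 lists, with 83.8% in PRC1ctrl P7 and 88.0% in WT P7. Its peak was 165 kb wide in PRC1cKO P6 and 166 kb in PRC1ctrl P6, 162 kb in PRC1cKO P7 and 31.4 kb in PRC1ctrl P7, and 164 kb in PRC2cKO and 166 kb in PRC2ctrl. In WT oocytes it measured 111, 159, 137 and 63.5 kb at E18.5, P1, P6 and P7. Small gaps broke the WT P7 window into 3 peaks, and with peaks under 5 kb apart joined the Sox21 domain measured 178 kb in WT P7 and 174 kb in WT P6. Sox14, expressed in particular interneurons of the spinal cord and brain, had H3K27me3 shares between 80.1% and 96.1% and peaks between 40.6 and 67.0 kb. Sox11, which acts in differentiating neurons, had shares between 67.2% (PRC1ctrl P7) and 95.3% (PRC1ctrl P6), and its peak was 61.0, 67.5, 68.8 and 31.5 kb wide in the WT lists of E18.5, P1, P6 and P7.

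In the E group, Sox9, which drives testis determination and cartilage formation, was covered by H3K27me3 over 94.6% to 100% of its window. A gap lay inside the gene in some lists, toward the end with the higher coordinate. In the WT P6 list 1 peak ended at chr11 position 112786920 and the next began at 112787761, 4 bp past the annotated end at 112787757, so that 84.9% of the span was covered. The WT P7 list had the same second start with a first end at 112786079 and 69.8% of the span covered, and PRC1ctrl P7 had 56.0%. In the other 7 lists the whole Sox9 span was covered. H2AK119ub also left part of Sox9 free, covering 69.6% of the span in PRC2cKO and 100% in PRC2ctrl, and 69.6%, 71.8%, 70.9% and 76.2% in the WT lists of E18.5, P1, P6 and P7.

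Sox8, a relative of Sox9 that acts with it in the testis, was the member whose span was not always marked. In PRC1cKO P7 the flanking H3K27me3 peaks ended at chr17 position 25563480 and began again at 25573525, which left 0% of the gene (25565893 to 25570686) covered. In PRC1ctrl P7 the flanking peaks ended at 25565789 and began at 25570688, 104 bp and 2 bp from the gene, and coverage of the span was also 0%. In the other 8 lists, including WT P7, 100% of the span was covered. The share of the Sox8 window ran between 41.2% (PRC1cKO P7) and 83.0% (WT P7), and to the right of the gene its peak stopped within 5.36 to 12.4 kb in all 8 lists that had one, while to the left it reached between 10.7 and 140.7 kb. One other protein-coding gene, Lmf1, lies partly in this window.

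Sox10, a regulator of neural crest, glia and melanocytes, was covered over its whole span in 10 of 10 H3K27me3 lists. Its peak stopped 0.765 to 4.17 kb left of the gene in every list and ran 5.42 to 52.5 kb to the right. The share of its window ran between 59.2% (PRC1cKO P7) and 75.3% (PRC1cKO P6). Micall1, 1700088E04Rik and Polr2f share parts of the Sox10 window.

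The F group had the narrowest H3K27me3 peaks by the median over the 10 lists, with 12.4 kb at Sox18 and 14.6 kb at Sox7, Sox17 next, and 33.6 kb or more at the other members. Sox18, a regulator of lymphatic vessel formation, had peaks between 10.4 and 15.8 kb and shares between 24.9% (PRC1cKO P7) and 46.2% (WT P1), in a window shared with Prpf6, Gm29797, Tcea2 and Rgs19. Its H2AK119ub peaks measured 40.4 kb in PRC2cKO and 30.8 kb in PRC2ctrl, and 33.0, 33.5, 31.8 and 6.52 kb in the WT lists of E18.5, P1, P6 and P7. Sox17, needed for definitive endoderm and the endothelium of arteries, had H3K27me3 shares between 46.8% (WT E18.5) and 86.7% (PRC1cKO P6), and its highest signal lay inside the gene in 10 of 10 lists. Sox7, an endothelial and endodermal factor, had shares between 25.2% (PRC2cKO) and 82.5% (WT P7), the widest range among the members. Its peak stopped 4.41 to 6.13 kb left of the gene in 8 lists and 10.8 and 11.8 kb left of it in PRC1cKO P7 and WT P7.

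**Figure D2:**
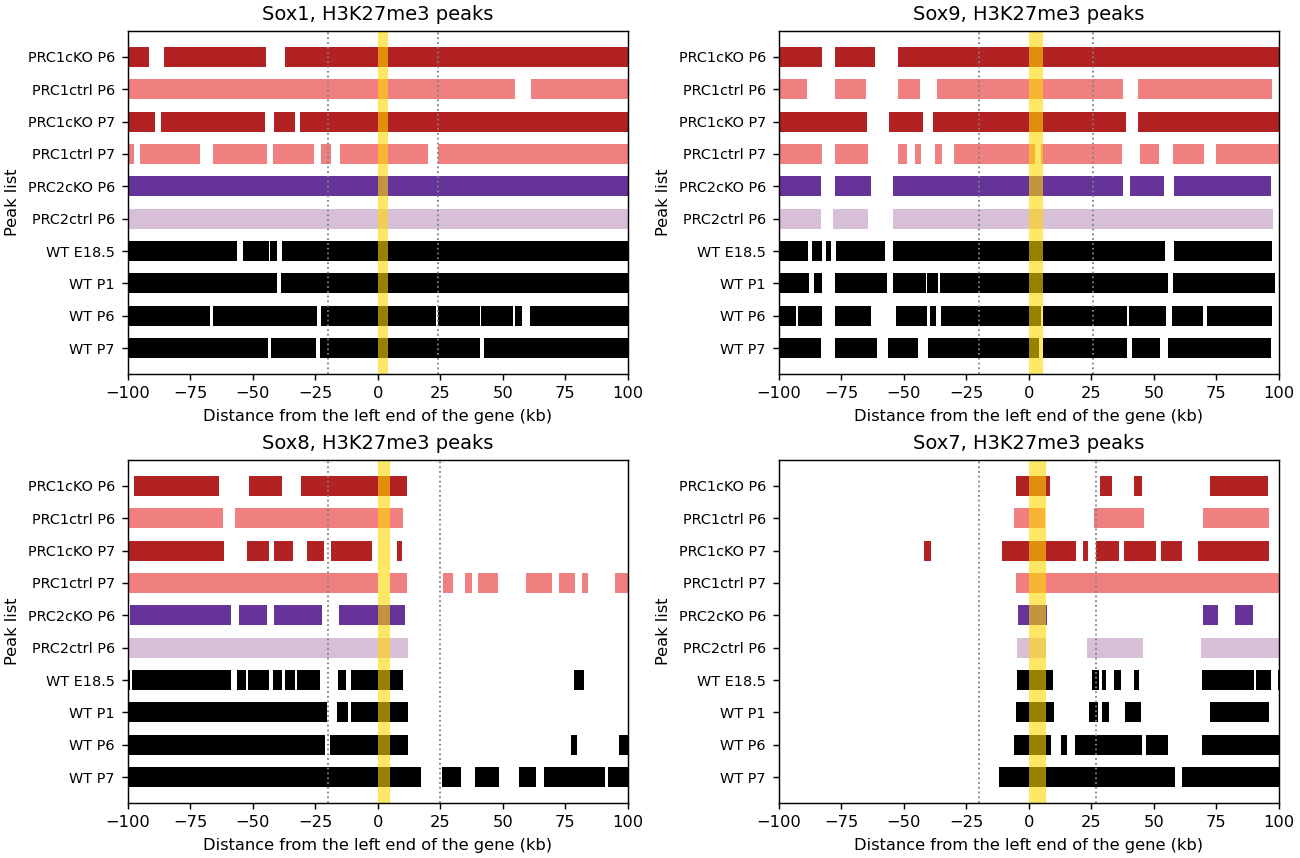
H3K27me3 peaks (bars) around Sox1, Sox9, Sox8 and Sox7 in the 10 lists, by distance in kb from the left end of the gene; the gene is yellow and dotted lines bound the window. The bars are broken inside Sox9 in WT P6, WT P7 and PRC1ctrl P7, absent from Sox8 in both PRC1 lists of P7, and longer to the right of Sox7 at P7.

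The authors' signal placed these peaks high within their own lists. In 160 pairs of member and list, 158 had a peak at the gene, and in 146 of them the highest signal of the widest such peak was above that of at least 90% of peaks in the list. For the total signal this held in 153 and for the width in 133. The highest signal lay inside the gene span in 99 and no farther than 5 kb from it in 147. The widest peak at a gene was ranked against all peaks of its list, a choice that by itself favours wide peaks. The same shares among all genes with a peak were not counted. The counts thus do not show whether the members ranked higher than other genes with a peak. The pairs repeat the same members over the lists and are not independent. At Sox17 the highest H3K27me3 signal was 163 in PRC2cKO, above 99.6% of peaks in that list, and 136 in PRC2ctrl, above 99.8% in that one. The scaling of these signals between lists was not given in the sources used here, so each is read within its own list. The lowest placed value was also at Sox17, where the widest WT P7 H2AK119ub peak (3.90 kb) had a highest signal of 6, above 26.2% of peaks, while a 3.57 kb peak inside the gene reached 28.

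In WT oocytes the H3K27me3 share was highest at P7 at Sox7, Sox8 and Sox17 and lowest at P7 at Sox14, Sox21, Sox9 and Sox18, all by less than 2-fold between successive stages. A gene was called lower or higher when the covered length in its window differed at least 2-fold between 2 lists, with at least 2 kb in the higher one. A window more than 50% covered in the earlier or control list cannot be called higher, so the count of higher calls is read against the members with room for one. These numbered 3 (Sox7, Sox17 and Sox18) at P1 against E18.5, 2 at P6 against P1 and 1 (Sox18) at P7 against P6, and 84.0%, 82.4% and 81.9% of all genes had such room. At P1 against E18.5, 0 members were called lower and 0 higher, against 5.91% and 5.68% of all genes. At P6 against P1 the members again gave 0 and 0, against 6.74% and 11.8%, and at P7 against P6 0 and 0, against 11.2% and 22.2%. At P7 against P6 the covered length was shorter at 6 members and longer at 4. The largest difference in share was at Sox7, with 34.5%, 38.6%, 55.9% and 82.5% at E18.5, P1, P6 and P7. Sox8 had 53.7%, 60.5%, 70.2% and 83.0%, and Sox17 had 46.8%, 56.8%, 61.1% and 72.6%, so these 3 windows had their highest WT share at P7. Sox14 had 95.6%, 96.1%, 90.0% and 82.4%, and Sox18 had 43.6%, 46.2%, 39.2% and 30.4%, both lowest at P7, as were Sox21 at 88.0% and Sox9 at 96.3%.

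The width of the single peak over the gene is not bounded by the window, and a gap of under 1 kb can split it. A domain was called narrower or wider when the widest peak touching the gene differed at least 2-fold, among genes with a peak in both lists. At P1 against E18.5, 0 members were narrower and 0 wider, against 3.13% and 14.6% of genes, and with peaks under 5 kb apart joined Sox8 and Sox18 were wider, against 11.0%. At P6 against P1, Sox1 and Sox9 were narrower and 0 wider, against 10.7% and 8.35%. The Sox9 peak was 40.0 kb wide at P6, against 91.0 kb at P1. With peaks under 5 kb apart joined, neither call held (345 kb at P6 and 508 kb at P1 for Sox9, 319 kb at P6 and 304 kb at P1 for Sox1), and Sox18 was narrower and Sox7 wider, against 11.9% and 12.2% of genes. At P7 against P6, Sox21 and Sox11 were narrower and Sox8 and Sox7 wider, against 8.48% and 28.9%. The Sox7 peak was 70.0 kb wide at P7, against 14.9 kb at P6, and the Sox8 peak 122 kb at P7, against 31.4 kb at P6. With peaks joined, Sox7 remained wider (154 kb at P7, against 61.8 kb at P6) while the calls at Sox21, Sox11 and Sox8 were lost, and Sox10 was narrower and Sox1 wider, against 12.8% narrower and 29.7% wider among all genes.

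**Figure D3:**
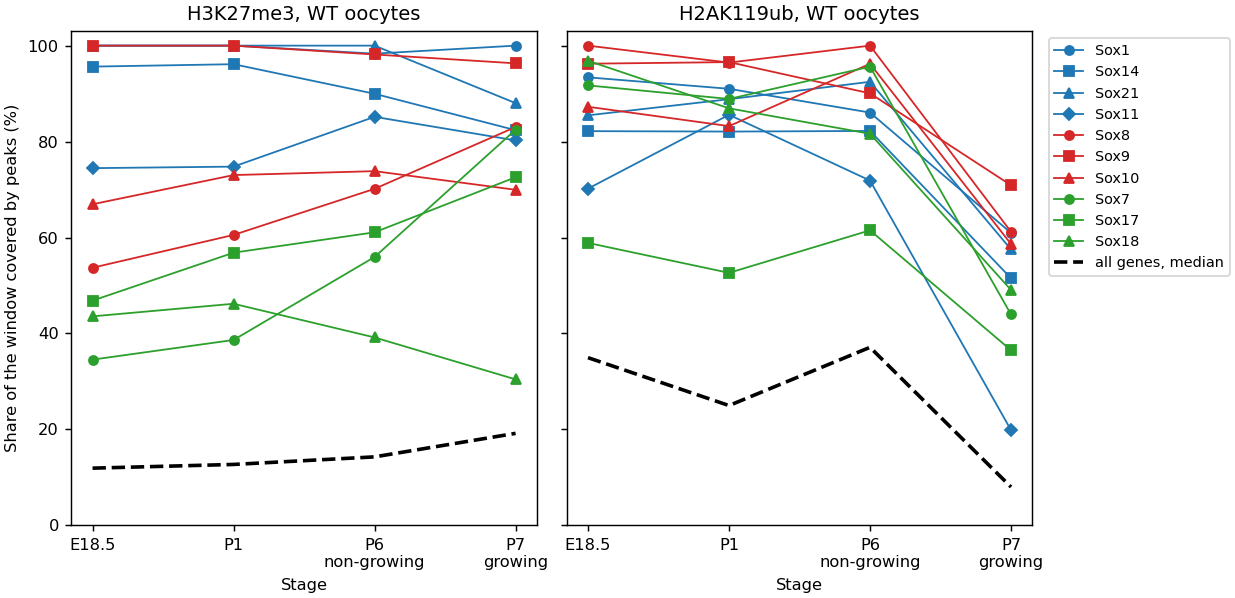
Share (%) of each window under H3K27me3 (left) and H2AK119ub (right) in WT oocytes at 4 stages, with 1 line per member (blue, groups B and C; red, group E; green, group F) and the median over all genes dashed. H3K27me3 stayed above the median of all genes at each member, and H2AK119ub was lower at P7 than at P6 at all 10.

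H2AK119ub was shorter and more broken up at all 10 members in growing oocytes. At P1 against E18.5, 0 members were called lower and 0 higher, against 17.4% and 5.35% of all genes, and at P6 against P1 0 and 0, against 5.7% and 20.0%. All 10 windows were more than 50% covered at E18.5, P1 and P6, so none could be called higher at the next stage, and the counts of 0 higher carry no information. At P7 against P6, Sox11 and Sox7 were called lower, against 60.6% of all genes. With a 5 kb flank Sox11 alone was called, with lists of equal covered length 1 member was, and at a 1.5-fold rule 8 were. Sox11 had shares of 70.2%, 85.6%, 71.9% and 19.8% at E18.5, P1, P6 and P7, and Sox7 had 91.7%, 88.9%, 95.6% and 44.0%. Sox9 had the highest P7 share, at 70.9%, against 90.1% at P6. Sox1 had 93.4%, 91.0%, 86.0% and 61.0%, Sox14 had 82.2%, 82.1%, 82.2% and 51.5%, and Sox21 had 85.5%, 88.8%, 92.5% and 57.5%. Sox8, whose window was wholly covered at E18.5 and P6, had 61.2% at P7, and Sox10 had 58.6% at P7, against 96.2% at P6. Sox17 had the lowest share of all members at E18.5, P1 and P6, with 58.9%, 52.6% and 61.5%, and 36.5% at P7. The ratio of P7 to P6 covered length had a median of 0.61 over the members, between 0.28 and 0.79, and of 0.31 over the genes with at least 2 kb in either list.

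The P7 windows held 3 to 8 separate H2AK119ub peaks, against 1 to 3 at P6. Sox8 had 8 at P7, against 1 peak of 154 kb at P6. Over Sox11 the P6 list had a 26.6 kb peak that covered the whole gene, and the P7 list had peaks of 1.56 kb and 3.28 kb that covered 41.0% of it. Domains were narrower at 9 members, all but Sox1, and wider at 0, against 88.7% and 0.0442% of genes, and with peaks joined at 8, all but Sox14 and Sox18, against 71.0%. At P1 against E18.5, Sox8 was narrower and Sox11 wider, against 24.1% and 4.71%, and at P6 against P1, 0 were narrower and Sox8, Sox10, Sox7 and Sox17 wider, against 3.79% and 31.2%. With peaks joined none of these earlier calls held, and Sox1 was narrower and Sox21 wider at P1, and Sox1 wider at P6, against 32.5% narrower and 6.20% wider among genes at P1 and 28.5% wider at P6. The WT P7 H2AK119ub list covered 244.2 Mb, against 728.3 Mb in the WT P6 list, and the part of list depth in the difference was not tested.

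Much of the H3K27me3 at the members also lay under H2AK119ub. In WT oocytes, 89.7%, 90.5%, 90.7% and 60.4% of the H3K27me3 length in the 10 windows was also under H2AK119ub at E18.5, P1, P6 and P7, against 70.8%, 65.8%, 78.2% and 41.1% over the windows of all genes. H2AK119ub itself covered 390, 386, 389 and 230 kb of the members' 453.6 kb at these stages. Over all genes it covered 705527, 577424, 715109 and 266200 kb of 1.93e+06 kb. The overlap is read against this coverage, and an excess over it was not tested. In this overlap Sox11 was lowest at P7, with 24.7%, and Sox10 highest, with 77.9%. At Sox8 the H3K27me3 lay wholly under H2AK119ub at E18.5, P1 and P6 and to 71.1% at P7. Seen from the other mark, the windows of Sox7 and Sox18 had H2AK119ub well beyond H3K27me3, since 37.7% of the H2AK119ub length of Sox7 and 44.2% of that of Sox18 lay under H3K27me3 at E18.5, whereas all of it did at Sox1, Sox14, Sox21 and Sox9. H3K27me3 covered 34.5% of the Sox7 window and 43.6% of the Sox18 window in that list. It covered 95.6% at Sox14 and 100% at Sox1, Sox21 and Sox9. In a window wholly under H3K27me3 this share is fixed at 100%, so the contrast carries no information beyond H3K27me3 coverage there.

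In PRC1cKO oocytes at P6 the members' median H3K27me3 share was 84.9%, against 78.4% in PRC1ctrl. Taken gene by gene, the ratio of covered length had a median of 1 over the members, with 3 shorter and 4 longer in PRC1cKO. Here 0 members were called lower and 0 higher in PRC1cKO, against 8.38% and 8.55% of all genes, and 2 members (Sox7 and Sox18) had room to be called higher. The members' shares differed most at Sox17, with 86.7% in PRC1cKO and 64.7% in PRC1ctrl. Domains were narrower at 0 members and wider at Sox9 and Sox17, against 11.1% and 8.62% of genes. The Sox9 peak was 193 kb wide in PRC1cKO and 74.1 kb in PRC1ctrl, and the Sox17 peak 40.3 kb in PRC1cKO and 19.8 kb in PRC1ctrl. With peaks joined Sox9 remained wider, against 8.57% of genes, and Sox17 did not, at 40.3 kb in PRC1cKO and 33.9 kb in PRC1ctrl. H2AK119ub in the PRC1 genotypes was not analysed here.

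At P7 the covered lengths again passed the rule at 0 members lower and 0 higher, against 17.7% and 13.4% of all genes, with 6 members longer and 4 shorter in PRC1cKO, and Sox18 was the 1 member with room to be called higher. With a 5 kb flank Sox8 was called lower, and the share of all genes under that flank is not given. Sox8 was the shortest relative to its control, with 41.2% in PRC1cKO and 59.8% in PRC1ctrl, and Sox1 had 100% in PRC1cKO and 82.1% in PRC1ctrl. Domains were narrower at Sox7 and wider at Sox1, Sox21 and Sox9, against 20.5% and 16.5% of genes with a peak in both lists. The Sox1 peak was 153 kb wide in PRC1cKO and 35.0 kb in PRC1ctrl, the Sox21 peak 162 kb in PRC1cKO and 31.4 kb in PRC1ctrl, and the Sox9 peak 77.0 kb in PRC1cKO and 32.6 kb in PRC1ctrl. The Sox7 peak was 29.4 kb wide in PRC1cKO and 133 kb in PRC1ctrl. The WT P7 peaks of Sox1, Sox21, Sox9 and Sox7 were 63.9, 63.5, 44.2 and 70.0 kb wide, between those of PRC1cKO and PRC1ctrl in each case. With peaks under 5 kb apart joined, the calls at Sox9 (94.8 kb in PRC1cKO and 75.0 kb in PRC1ctrl) and Sox7 (71.8 kb in PRC1cKO and 133 kb in PRC1ctrl) were lost, those at Sox1 (460 kb in PRC1cKO and 188 kb in PRC1ctrl) and Sox21 were kept, and Sox10 was wider, against 22.3% narrower and 16.7% wider among genes. The joined WT domains, at 675, 178, 333 and 154 kb for Sox1, Sox21, Sox9 and Sox7, were wider than those of both PRC1 genotypes.

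**Figure D4:**
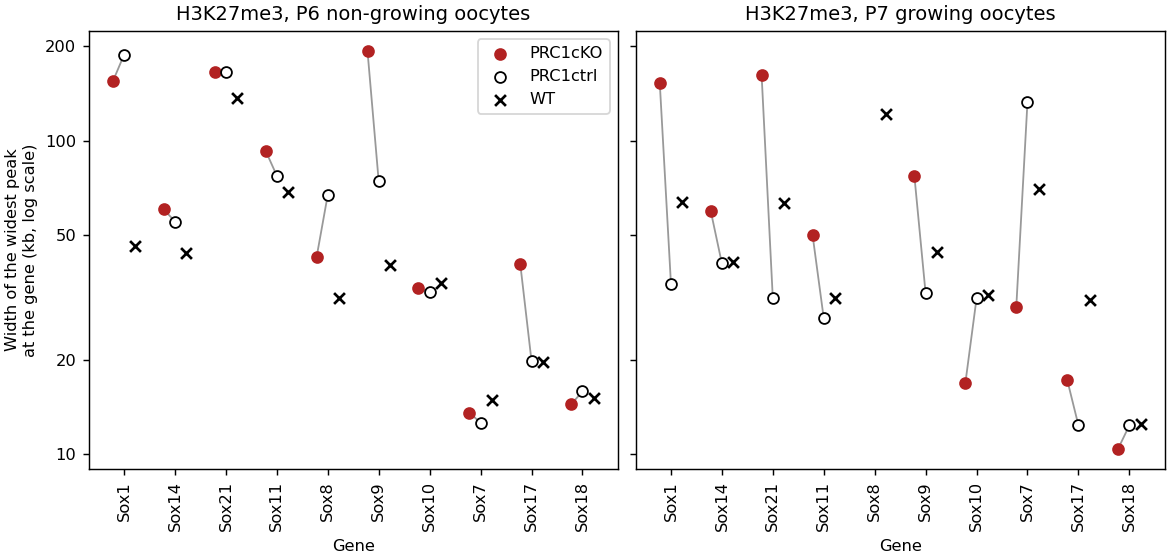
Width (kb, log axis) of the widest H3K27me3 peak touching each gene in PRC1cKO (red), PRC1ctrl (open) and WT (cross) oocytes at P6 (left) and P7 (right), with 1 list per point. At P7 the Sox1, Sox21 and Sox9 peaks are wider and the Sox7 peak narrower in PRC1cKO than in PRC1ctrl, and Sox8 has no PRC1cKO or PRC1ctrl peak; with peaks under 5 kb apart joined the Sox9 and Sox7 differences fall below 2-fold.

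Within each PRC1 genotype, growing and non-growing oocytes differed most at Sox7. In PRC1cKO the Sox7 share was 66.7% at P7, against 28.8% at P6, and in PRC1ctrl it was 68.3% at P7, against 28.9% at P6. Sox7 was the member called higher in both, and 0 were called lower, against 10.2% of all genes higher and 16.3% lower in PRC1cKO and 16.0% higher and 17.8% lower in PRC1ctrl. In WT oocytes the Sox7 share was also higher at P7 (82.5%, against 55.9% at P6), below the 2-fold rule. With a 5 kb flank the Sox7 calls were lost, 0 members were higher in either genotype, and Sox8 was called lower in PRC1cKO. The shares of all genes under that flank are not given.

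In the PRC2cKO list of P6 oocytes the members lay under H3K27me3 peaks. The lowest total signal in the list was 6790 for PRC2cKO and 10510 for PRC2ctrl, on a scale that may differ. A peak therefore does not show how much of the mark remained. Against PRC2ctrl, 0 members were called lower and 0 higher, against 22.2% and 3.05% of all genes, and 2 members (Sox7 and Sox18) had room to be called higher. The ratio of covered length had a median of 0.96 over the members and of 0.72 over the genes with at least 2 kb in either list. Sox1, Sox21 and Sox9 were covered over 100% of the window in both lists, and Sox14 over 89.6% in PRC2cKO and 90.0% in PRC2ctrl. Peaks at the first 3 reached beyond the window, so the share could not show a narrowing. The Sox1 peak was 241 kb wide in PRC2cKO and 398 kb in PRC2ctrl. At Sox21 it was 164 kb in PRC2cKO and 166 kb in PRC2ctrl, and at Sox9 91.9 and 152 kb. By any amount, the domain was narrower in PRC2cKO at 7 members and wider at 3. The largest difference was at Sox17, with 47.4% in PRC2cKO and 71.4% in PRC2ctrl. Sox7 had 25.2% in PRC2cKO and 32.8% in PRC2ctrl, and Sox18 had 27.4% in PRC2cKO and 34.3% in PRC2ctrl. Domains were narrower at Sox8 and wider at 0, against 26.3% and 3.08% of genes, and the Sox8 peak was 26.6 kb wide in PRC2cKO and 153 kb in PRC2ctrl, as it was with peaks joined, when Sox9 was also narrower, against 26.4% of genes. The whole gene span was covered in the PRC2cKO list at 10 of 10 members.

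H2AK119ub in PRC2cKO was shorter at 7 members and longer at Sox9, Sox10 and Sox18. None passed the 2-fold rule, with 0 lower against 11.7% of all genes, and no member had room to be called higher. Sox17 had 44.1% in PRC2cKO and 68.1% in PRC2ctrl, Sox11 had 52.5% in PRC2cKO and 76.1% in PRC2ctrl, and Sox14 had 64.3% in PRC2cKO and 82.6% in PRC2ctrl. These 3 windows differed most, and Sox8 came next, with 89.8% in PRC2cKO and 100% in PRC2ctrl. Domains were narrower at Sox8 and wider at 0, against 25.4% and 3.84% of genes. With peaks joined the Sox8 call was lost (255 kb in PRC2cKO and 194 kb in PRC2ctrl), and Sox11 was narrower and Sox1 wider, against 21.1% and 7.55% of genes. The share of H3K27me3 length also under H2AK119ub was 80.2% in PRC2cKO and 88.0% in PRC2ctrl over the members, and 55.2% in PRC2cKO and 63.1% in PRC2ctrl over all genes. H2AK119ub itself covered 327 kb in PRC2cKO and 367 kb in PRC2ctrl of the members' 453.6 kb. Over all genes it covered 428299 kb in PRC2cKO and 509698 kb in PRC2ctrl, of 1.93e+06 kb.

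**Figure D5:**
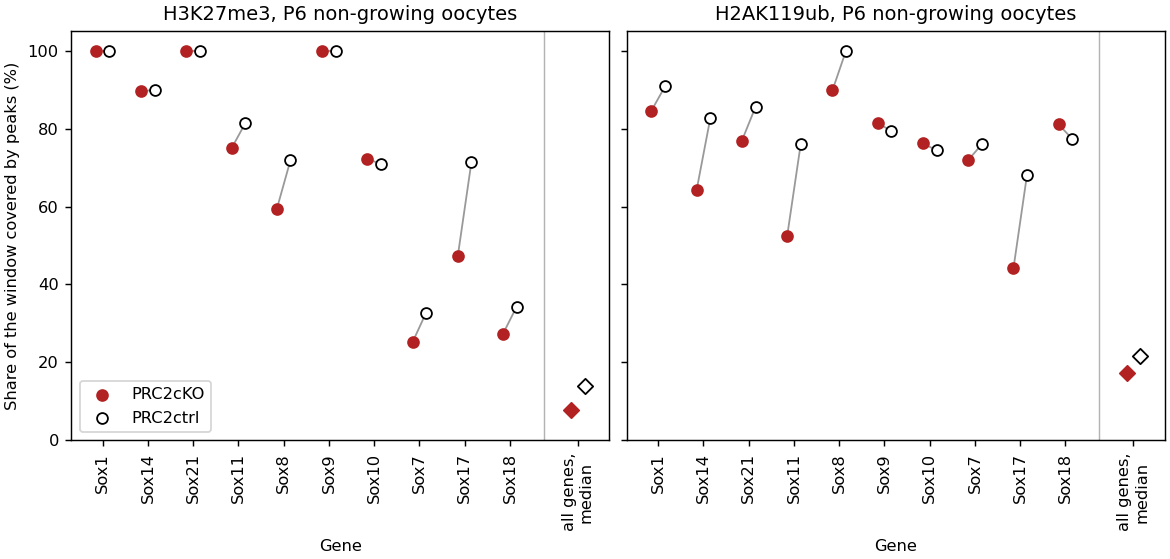
Share (%) of each window under H3K27me3 (left) and H2AK119ub (right) in PRC2cKO (red) and PRC2ctrl (open) P6 oocytes, with 1 list per point and diamonds for the median over all genes. Sox17 differs most for both marks, and Sox1, Sox21 and Sox9 are at 100% for H3K27me3 in both lists.

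The controls were set against WT oocytes of the same stage to show how far lists differ outside the knockout comparisons. PRC1ctrl lacked Ring1 and carried a floxed Rnf2 allele, and PRC2ctrl carried a floxed Eed allele, both with Ddx4-Cre. Genotype and list origin therefore cannot be told apart here. No member passed the 2-fold rule in either direction in any of these 4 comparisons, against 14.8% of all genes for PRC1ctrl P6, 18.3% for PRC1ctrl P7 and 10.6% for PRC2ctrl with H3K27me3, and 24.2% for PRC2ctrl with H2AK119ub. The lowest ratio of covered length among them was 0.52, at Sox7 for PRC1ctrl P6 (28.9%, against 55.9% in WT), and Sox7 was also lowest for PRC2ctrl with H3K27me3, at 0.59. The lowest ratio in the 4 knockout comparisons was 0.65, at Sox17 for H2AK119ub in PRC2cKO, so both ratios at Sox7 were lower than any between a knockout list and its control. In share, the PRC2ctrl difference at Sox7 (32.8%, against 55.9% in WT) was not larger than that at Sox17 (44.1% in PRC2cKO and 68.1% in PRC2ctrl). Domain widths differed at least 2-fold at Sox1 and Sox8 between PRC1ctrl and WT at P6, at Sox21 and Sox17 at P7, at Sox1, Sox8 and Sox9 between PRC2ctrl and WT with H3K27me3, and at Sox11, Sox10 and Sox7 with H2AK119ub, against 24.6%, 24.9%, 25.5% and 34.2% of genes. With peaks joined such differences numbered 3, 3, 1 and 6 in these comparisons. The share of all genes with such a joined difference is not given, so these counts cannot be read against it. A 2-fold difference in domain width thus also arose between control and WT lists.

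The other 10 Sox genes in the annotation list, Sox2, Sox3, Sox4, Sox5, Sox6, Sox12, Sox13, Sox15, Sox30 and Sry, had lower medians than the members in every list, with overlap between single genes. Their median share of the window under H3K27me3 lay between 4.53% (WT E18.5) and 37.6% (WT P7), and under H2AK119ub between 11.4% (WT P7) and 45.5% (PRC2ctrl). Sox15 had 0% under H3K27me3 in all 10 lists. Sry, on chromosome Y, had 0% under both marks in every list. Oocytes of female mice carry no Y chromosome, so this value carries no information, and the medians above count it. Sox3, an X-linked gene of group B, had 57.9% to 89.2% under H3K27me3, with a median of 77.4% that was above those of Sox8, Sox10, Sox7, Sox17 and Sox18. For H2AK119ub the medians of Sox13 (75.9%), Sox2 (70.8%) and Sox3 (59.4%) were above that of Sox17 (55.8%). The Sox13 median was also above that of Sox11 (71.0%). Sox2, the pluripotency and neural factor closest to Sox1 and Sox3, had H3K27me3 over 0%, 5.58%, 63.6% and 100% of its window in the WT lists of E18.5, P1, P6 and P7, and over 25.6% in PRC2cKO and 55.5% in PRC2ctrl. At P7 against P6 in WT oocytes, Sox4, Sox5, Sox6, Sox13 and Sox30 were called higher for H3K27me3 and 0 lower, against 22.2% and 11.2% of all genes. In PRC2cKO Sox2, Sox4 and Sox13 were called lower and 0 higher, against 22.2% and 3.05%. In PRC1cKO P7, Sox4, Sox13 and Sox30 were called lower and 0 higher, against 17.7% and 13.4%, and for Sox13 the share was 11.7% in PRC1cKO and 76.6% in PRC1ctrl.

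A list of 29 known targets and partners of Sox factors was counted in the same way. Their median H3K27me3 share lay between 45.5% (PRC2cKO) and 65.4% (WT P7). Their counts of calls are given as a description beside the share of all genes called, and those named lie near or below it. In PRC2cKO, 5 (17.2%) were called lower for H3K27me3, against 22.2% of all genes, and 0 higher, against 3.05%. They were Amh, the hormone that SOX9 activates in Sertoli cells, the cartilage collagen gene Col9a1, Ptgds, the endothelial cadherin Cdh5 and Mef2c. For H2AK119ub in PRC2cKO 3 (10.3%) were called lower (Vcam1, Mef2c and Dcx), against 11.7% of all genes, and 0 higher, against 4.14%. In PRC1cKO P6 Ptgds was called lower and 0 higher, against 8.38% and 8.55% of all genes. In PRC1cKO P7 Ptgds and Erbb3 were called lower, against 17.7%, and Amh, Fgf9, Tubb3 and Dcx higher (13.8%, against 13.4%). The same 4 genes were called lower in PRC1ctrl than in WT at P7 (13.8%, against 15.7% of all genes). Their higher calls are thus set against a control list that was itself low at these genes. At P7 against P6 in WT oocytes, Mitf was called lower for H3K27me3, against 11.2% of all genes, and 6 (20.7%) higher (Amh, Col9a1, Ptgds, Erbb3, Cldn5 and Vcam1), against 22.2%. For H2AK119ub 18 (62.1%) were called lower, against 60.6%, and 0 higher, against 2.04%. Foxa2, an endoderm factor, was covered by H3K27me3 over 95.5% to 100% of its window in the 10 lists.

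The genes outside the Sox family whose shares over the 16 lists lay nearest to the members' medians were Inpp5j, a phosphatase gene, at a Euclidean distance of 18.8 percentage points, Clstn3, a synaptic cadherin-like gene (21.1), Fhdc1 (22.7), Fgf15, a growth factor gene (22.9), and Ppfia3 (23.0). Of the members themselves Sox10 was nearest, at 25.0, and Sox18 farthest, at 130.8, against a median of 241.2 over all protein-coding genes. Inpp5j had H3K27me3 over 66.2% to 83.0% of its window and H2AK119ub over 51.8% to 92.4%. Lists of the same stage or genotype are not independent, and the distance is a description of these lists.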

How the data were processed

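CUT&Tag reads were made from oocytes with antibodies against H3K27me3 or H2AK119ub. Drosophila S2 cells served as spike-in, per the labels' protocols (2000 of them to 1000 oocytes in the example given). The submitters' processing notes name Bowtie2, SAMtools, deepTools, Trim Galore 0.6.10 and Picard 3.0.0, with GRCm38, mm10 and dm6, but no roles. How peaks were called, scaled and pooled is not given in the sources used here. Each group has 1 deposited list of peaks without a header, with the authors' total signal, treated as a score, and highest signal per peak (judged from the values). Both columns served to describe and rank peaks within a list. Read depth is unknown, so no interval or floor is given.

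Covered length was computed with Python 3.11.15, pandas 2.3.3 and NumPy 2.4.6 from merged peak intervals, for the gene span plus 20 kb on each side, and checked on simulated peaks. With 1 list per group no p-value was made. The rule of a 2-fold difference in covered length with a 2 kb minimum was applied to all 21883 protein-coding genes. Domain widths were added after seeing the lists. The members, gene lists and rules were chosen with earlier results of these data known. All members are named, the other Sox genes and the listed targets by call, and outside the family the 5 genes nearest to the members' medians and over 1 Mb from any member. Some genes of the target list as first drawn up are not reported here, and its counts and medians leave them out. Foxa2 and Sox3 were named after their values were seen. Alternatives were a 5 kb flank, peaks at or above the median total signal, lists of equal covered length, a 1.5-fold rule, no minimum length and, for domains, peaks under 5 kb apart joined.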

Additional observations from a re-analysis of the deposited data

How the results depend on the processing

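No paired analysis was possible because each group has 1 deposited list, so replicates can neither be blocked nor left out. With a 5 kb flank, 1 member (0 with 20 kb) was lower in PRC1cKO against PRC1ctrl at P7, 1 was lower for H2AK119ub at P7 against P6 in WT, 1 was lower in PRC1cKO P7 against P6, and 0 were higher there or in PRC1ctrl P7 against P6. At a 1.5-fold rule, 1 member was lower in PRC2cKO for H3K27me3 and 1 for H2AK119ub, 2 in PRC1cKO P7 against P6, and 8 for H2AK119ub at P7 against P6 in WT. With lists of equal covered length that last count was 1. The shares of all genes under the 5 kb flank, the 1.5-fold rule and equal covered length are not given. With peaks under 5 kb apart joined, wider domains numbered 1 in PRC1cKO P6, 1 in PRC2cKO H2AK119ub, 2 at WT P1 and 1 at WT P6 for H3K27me3, and 1 at WT P6 for H2AK119ub, and narrower domains 0 in PRC1cKO P7, 2 in PRC2cKO H3K27me3, 1 at WT P6 and 1 at WT P7 for H3K27me3. The cause was not tested. All other member counts under these settings, under the stricter signal threshold and without the minimum stayed within 1.5 times the values reported. The unknown depth and scaling of the lists limit what can be compared between them.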
